A study of Mus musculus with 4 samples.

Results

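The RGS (regulators of G protein signalling) genes Rgs1, Rgs2, Rgs3, Rgs10, Rgs14, Rgs16, Rgs18 and Rgs19 were described in RNA sequencing data from ILC1s, the type 1 innate lymphoid cells of the mouse. They were taken by gene symbol, and each of the 8 matched 1 Ensembl gene among the 40481 in the table, which held 21 numbered Rgs genes in all. Libraries 3 and 4, labelled knockout, came from Ncr1-iCre Inpp4b flox/flox mice. Control libraries 1 and 2 came from Inpp4b flox/flox mice, so both genotypes carried the floxed alleles and only the first carried iCre, a codon-improved Cre recombinase. An effect of iCre itself and one of Inpp4b loss cannot be told apart. The Cre is under the control of Ncr1, which encodes the receptor NKp46 of natural killer (NK) cells and ILC1s, so a deletion is limited to cells that use this locus. The cells were gated on CD49a, an integrin of ILC1s, as the design text has it. Liver is given as tissue for control library 1 and for no other library, and the age and number of animals behind each library are not given. No label ties the 2 libraries of a genotype to different animals. The p-values therefore reflect the spread among these libraries alone, and that spread may be technical.

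RGS proteins help to end G protein signals. A receptor such as a chemokine receptor loads the alpha subunit of its G protein with GTP, and the RGS domain speeds the hydrolysis of that GTP, which shortens the signal. Most members act on the inhibitory (Gi) and Gq classes of alpha subunits. In lymphocytes, Rgs1 is known for dampening the response to chemokines and for limiting migration, and Rgs1, Rgs2 and Rgs16 are known as genes that cell stimulation induces.

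The libraries held 42380840 to 54878210 counts. Inpp4b itself was at 143 and 86.0 TMM-scaled CPM (counts scaled to a common library total) in the libraries labelled knockout, against 78.7 and 107 CPM in the controls. The targeted transcript was thus not lower, with a fitted change of 0.30 on the log2 scale (SE 0.28; adjusted p = 0.828, edgeR), and the sources used here do not give which exons are floxed. Ncr1 was at 1202 and 1077 CPM in the libraries labelled knockout, against 1672 and 1772 CPM in the controls. Its log2 fold change was -0.60 (edgeR adjusted p = 0.28), and DESeq2 called it lower (adjusted p = 0.0297). Of 12 markers of ILC1s and NK cells, none was absent, and their summed level was 12600 and 13774 CPM in the libraries labelled knockout, against 12877 and 13885 CPM in the controls. The sum hides differences, as 2 of the 12 were higher in both libraries labelled knockout than in both controls and 4 were lower in both. Among 11 markers of conventional NK cells, 6 were higher in both and 1 lower, summing to 61.1 and 76.5 CPM against 43.9 and 37.6 CPM. Markers of other cells were unevenly spread. Of 16 monocyte, macrophage and Kupffer cell markers, 11 were higher in both libraries labelled knockout than in both controls, and 1 was lower in both. Their summed level was 876 and 863 CPM against 99.6 and 136 CPM. Among 12 dendritic cell markers, 7 were higher in both and 3 lower, summing to 1089 and 1254.5 CPM against 691 and 719 CPM. Among 11 neutrophil markers, 3 were higher in both and 0 lower, summing to 250 and 168 CPM against 103 and 97.6 CPM. Beside the counts of these lists, 19.5% of all genes tested were higher in both and 20.8% lower.

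Of 14863 genes tested with edgeR's quasi-likelihood test, 0.155% passed an adjusted p of 0.05, and 0 of the 8 members did. By direction, 0.141% of genes were called higher and 0.0135% lower. DESeq2 called 3.17% of genes (1.83% higher, 1.34% lower) and likewise 0 members, and limma-voom called 0 members. At an unadjusted p under 0.05 in edgeR, 1 member was higher and 0 lower, against 4.48% and 5.17% of all genes and 9.65% in either direction. The libraries labelled knockout and the controls did not overlap in 3 members, which is 37.5% of them, beside 40.2% of all genes (19.5% higher, 20.8% lower). Rgs1 and Rgs14 were the members with both libraries labelled knockout above both controls, and Rgs19 had both below. The median log2 fold change of the 8 members was 0.08, against -0.01 over all genes tested.

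**Figure D1:**
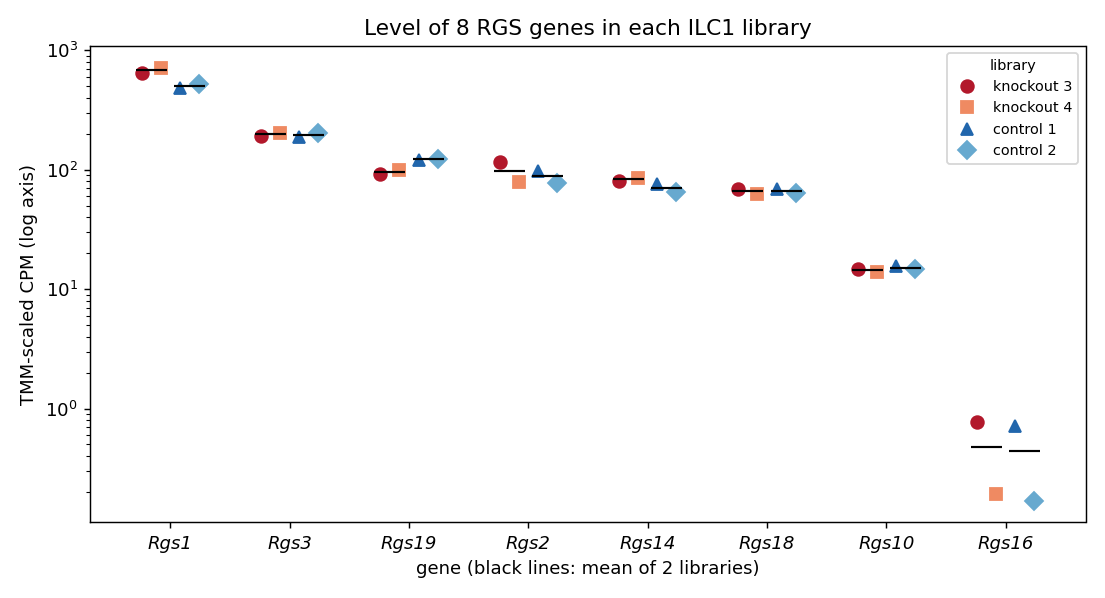
Level of each member in the 4 libraries, as TMM-scaled CPM on a log axis, with black lines at the mean of the 2 libraries of a genotype. Rgs1 lies above 480 CPM in every library and Rgs16 below 1 CPM, and the points of a gene lie close together except in Rgs16 and, to a smaller degree, Rgs2.

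The promoters of Rgs2 and Rgs16 are shown because, among the 8 members, these differed most between the 2 libraries of each genotype. That of Rgs10 is shown because its level hardly moved. RefSeq promoter windows (assembly GRCm38.p6, which is mm10) were found for 5 of the 8 members. The windows give the 250 bases before the start site, 5′ to 3′ on the gene's strand. Capitals mark the CRE half-site TGACG, which factors activated by cyclic AMP bind, and the CCAAT box CCAAT, each searched on both strands with no overlap between them.
Rgs2: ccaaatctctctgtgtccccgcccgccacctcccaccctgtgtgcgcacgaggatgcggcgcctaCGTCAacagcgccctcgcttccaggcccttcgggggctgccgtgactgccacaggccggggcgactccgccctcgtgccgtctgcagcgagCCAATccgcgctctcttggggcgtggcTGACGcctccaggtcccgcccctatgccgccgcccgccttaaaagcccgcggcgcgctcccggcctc
Rgs16: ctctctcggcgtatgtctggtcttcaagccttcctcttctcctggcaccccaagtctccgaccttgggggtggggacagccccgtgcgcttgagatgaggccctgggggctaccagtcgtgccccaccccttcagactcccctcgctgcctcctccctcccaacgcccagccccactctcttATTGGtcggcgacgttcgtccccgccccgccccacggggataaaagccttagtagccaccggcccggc
Rgs10: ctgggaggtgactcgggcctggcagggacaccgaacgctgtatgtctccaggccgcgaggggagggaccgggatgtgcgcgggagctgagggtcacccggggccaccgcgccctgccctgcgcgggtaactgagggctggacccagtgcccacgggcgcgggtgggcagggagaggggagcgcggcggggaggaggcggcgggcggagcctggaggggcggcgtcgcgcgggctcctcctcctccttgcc
The Rgs2 window lies at chr1:144004150-144004399 on the minus strand, the Rgs16 window at chr1:153740103-153740352 on the plus strand and the Rgs10 window at chr7:128418173-128418422 on the minus strand. These windows stand before RefSeq starts. In the GENCODE M21 annotation Rgs10 begins at 128418758 on the minus strand, so its whole window lies inside the annotated gene. The Rgs2 window held CRE half-sites beginning 185 and 67 bases before the start and a CCAAT box at 94 bases. The Rgs16 window held a CCAAT box at 68 bases, on the opposite strand, and no CRE half-site, and the Rgs10 window held neither. A CRE half-site stood in 17.8% and a CCAAT box in 33.8% of all 32851 promoter windows of this length, so these matches are common and describe the sequence alone.

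Rgs1, Rgs2, Rgs3, Rgs16 and Rgs18 belong to the R4 subfamily, most of whose proteins are small and made of little more than the RGS domain. Rgs1 was the most abundant member on every scale. Its level was 649 and 717 CPM in the libraries labelled knockout, against 482 and 526 CPM in the controls. Both libraries labelled knockout thus lay above both controls, with means of 683 ± 47.8 and 504 ± 31.1 CPM (SD, n = 2 each). On the log2 scale the change was 0.44 (SE 0.14, 95% interval 0.11 to 0.77), and it did not pass the threshold (edgeR adjusted p = 0.396, unadjusted p = 0.0171; DESeq2 adjusted p = 0.203). It ran from 0.34 to 0.51 when each library was left out in turn. In the same libraries, the summed level of the monocyte, macrophage and Kupffer cell markers was higher as given above. That of 15 T cell markers was 3089 and 4176 CPM in the libraries labelled knockout, against 2598 and 2594 CPM in the controls. A large part of it was Cd3g, at 1623 and 1930.5 CPM against 1469 and 1255 CPM. Cd3e was at 152 and 371 CPM in the libraries labelled knockout, against 26.5 and 15.1 CPM in the controls. Of the 15, 8 were higher in both libraries labelled knockout than in both controls, and 1 was lower in both. Over all genes tested, 19.5% were higher in both and 20.8% lower. Myeloid cells and T cells also express Rgs1, and the part of these cells in its level was not tested. In bulk RNA, more cells of a type and more RNA per cell cannot be told apart.

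Rgs2, known for its preference for Gq, was at 116 and 78.6 CPM in the libraries labelled knockout, against 98.4 and 77.6 CPM in the controls. Library 3 and control library 1 were the high ones, so the genotypes overlapped. The log2 fold change was 0.14 (SE 0.24, 95% interval -0.43 to 0.71, edgeR adjusted p = 0.941), and its direction turned without knockout library 3 (-0.19) and without control library 2 (-0.02).

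Rgs16, an inducible member, was barely counted, with 33 and 10 counts in the libraries labelled knockout, against 41 and 8 counts in the controls. These are 0.77 and 0.19 CPM in the libraries labelled knockout, against 0.71 and 0.17 CPM in the controls. As with Rgs2, library 3 and control library 1 were high. The exact Poisson intervals of the CPM, which cover counting error only, were 0.53 to 1.08 in knockout library 3 and 0.093 to 0.36 in knockout library 4. They were 0.51 to 0.96 in control library 1 and 0.073 to 0.33 in control library 2, so the intervals did not overlap within either genotype. The intervals treat the reads as independent, and the spread added by the making of low-input libraries was not tested. The log2 fold change of 0.12 (SE 1.26) had a 95% interval of -2.93 to 3.17 (edgeR adjusted p = 0.996), so a large change in either direction was not detectable with this spread between the libraries. Its direction turned without knockout library 3 (-1.21) and without control library 2 (-0.56).

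Rgs18, a member known from platelets and megakaryocytes, was at 69.6 and 62.4 CPM in the libraries labelled knockout, against 69.4 and 63.9 CPM in the controls. The genotypes overlapped, with a log2 fold change of -0.01 (SE 0.17, 95% interval -0.43 to 0.40, edgeR adjusted p = 0.996). Its direction turned with upper-quartile factors (0.01) and without knockout library 4 or control library 1. Platelet markers were scarce in the same libraries: the 10 markers summed to 31.0 and 37.9 CPM in the libraries labelled knockout and to 33.6 and 66.7 CPM in the controls, most of it Itgb3, and 5 of the 10 were below 1 CPM in every library. Pf4, the platelet factor gene, was at 2.33 and 2.76 CPM in the libraries labelled knockout, against 4.38 and 2.65 CPM in the controls. The part of platelets, or of the other cells whose markers are given above, in the level of Rgs18 was not tested. Nor was it tested for the other members.

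Rgs3, which has long isoforms with further domains, was the next most counted member after Rgs1. It was at 193 and 204 CPM in the libraries labelled knockout, against 187 and 202 CPM in the controls. These ranges overlapped, and the log2 fold change was 0.03 (SE 0.14, 95% interval -0.30 to 0.36, edgeR adjusted p = 0.99). Its direction turned with library totals alone (-0.01) and without knockout library 4 or control library 1.

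In the R12 subfamily, Rgs14 carries Ras-binding domains and a GoLoco motif that holds inactive Gi alpha subunits, while Rgs10 is little more than an RGS domain. Rgs14 was at 80.5 and 85.8 CPM in the libraries labelled knockout, against 75.2 and 64.6 CPM in the controls. Both libraries labelled knockout were above both controls, but the log2 fold change of 0.25 (SE 0.17, 95% interval -0.16 to 0.66) did not pass the threshold (edgeR adjusted p = 0.733). Rgs10 was at 14.75 and 14.03 CPM in the libraries labelled knockout, against 15.5 and 14.6 CPM in the controls. The genotypes overlapped, with a log2 fold change of -0.07 (SE 0.28, 95% interval -0.73 to 0.60, edgeR adjusted p = 0.989).

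Rgs19 of the RZ subfamily, whose proteins are anchored to membranes by palmitoylated cysteines, was the member with the lowest fold change. It was at 92.7 and 100.3 CPM in the libraries labelled knockout, against 120.4 and 123.9 CPM in the controls. Both libraries labelled knockout lay below both controls, with means of 96.5 ± 5.37 and 122 ± 2.44 CPM (SD, n = 2 each). On the log2 scale the change was -0.34 (SE 0.15, 95% interval -0.70 to 0.02), and it did not pass the threshold (edgeR adjusted p = 0.539, unadjusted p = 0.0582; DESeq2 adjusted p = 0.524). The unadjusted p was under 0.05 in 3 other fits, the lowest 0.0289 with library totals alone. It stayed between -0.43 and -0.31 when each library was left out in turn.

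**Figure D2:**
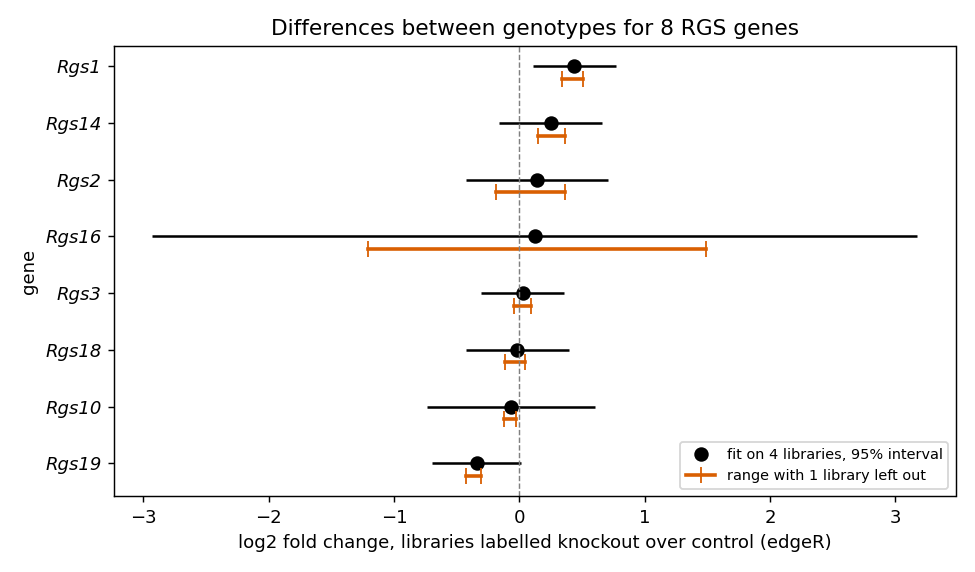
Log2 fold change of each member, libraries labelled knockout over control, from edgeR on 4 libraries (black point with 95% interval) and its range when each library is left out in turn (orange). The interval of Rgs1 lies above 0 before adjustment, that of Rgs19 just reaches 0.02, and that of Rgs16 runs from -2.93 to 3.17.

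Levels of different genes were compared per kilobase of annotated exon, since a longer transcript gives more reads. Over the 4 libraries, Rgs1 spanned 69.4 to 103 CPM per kb, Rgs19 41.6 to 55.6 and Rgs18 30.7 to 34.3. Rgs2 spanned 21.4 to 31.9 CPM per kb, Rgs3 17.3 to 18.9, Rgs14 15.2 to 20.2, Rgs10 8.20 to 9.06 and Rgs16 0.072 to 0.33. The ranges of Rgs18 and Rgs2 overlapped, as did those of Rgs3 and Rgs14, and the other neighbours in this order did not overlap. Rgs1 stood in place 733 of the 14863 genes by mean level per kb of annotated exon and Rgs10 in place 4601. These places rest on the annotation: the exons of Rgs1 cover its whole span of 6947 bases, and its longest coding transcript has 3841. For Rgs10 the lengths are 1711 and 880 bases. The order in the middle depended on the gene length used: over the longest coding transcript, which is shorter than the annotated exons in 6 of the members, Rgs3 took place 3 and Rgs2 place 6. Rgs1 and Rgs19 kept places 1 and 2, and Rgs10 and Rgs16 places 7 and 8.

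Rgs1 made up 37.8% and 41.6% of the members' summed level per kb in the libraries labelled knockout, against 30.3% and 33.4% in the controls. The share of Rgs19 was 16.8% and 18.1% in the libraries labelled knockout, against 23.6% and 24.5% in the controls. The genotypes did not overlap in either share. Over the longest coding transcript, the share of Rgs1 was 42.7% and 46.0% in the libraries labelled knockout, against 34.7% and 37.7% in the controls. A share moves with the other members in the sum: that of Rgs10, whose level overlapped, was also lower, at 3.49% and 3.31% in the libraries labelled knockout, against 3.96% and 3.77% in the controls. The summed level of the 8 members was 247 and 248 CPM per kb in the libraries labelled knockout, against 229 and 227 CPM per kb in the controls.

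Rgs1, Rgs2 and Rgs18 lie in a run of 5 Rgs genes on the minus strand of chromosome 1 (mm10, 143999338 to 144775435, positions from GENCODE M21), with Rgs13 and Rgs21 between them. These 5 are the only protein-coding genes annotated in the 776 kb. Rgs13 and Rgs21 had 0 counts in every library, which allows at most 0.070 CPM each in any of them by a floor of 3 counts. Rgs13, whose start lies 173 kb from that of Rgs2, was thus not detectable beside Rgs1, the most abundant member. Rgs16 lies further along the chromosome at 153740349 to 153745468 and has the low level described above. Rgs3 lies on chromosome 4 (62559847 to 62704001), Rgs10 on chromosome 7 (128373621 to 128418758), Rgs14 on chromosome 13 (55369732 to 55384687) and Rgs19 on chromosome 2 (181688419 to 181693977). The Ensembl genes are ENSMUSG00000026358 for Rgs1, ENSMUSG00000026360 for Rgs2, ENSMUSG00000059810 for Rgs3, ENSMUSG00000030844 for Rgs10, ENSMUSG00000052087 for Rgs14, ENSMUSG00000026475 for Rgs16, ENSMUSG00000026357 for Rgs18 and ENSMUSG00000002458 for Rgs19. Exons of Rgs16 overlap another annotated gene, Gm28513 on the opposite strand, which had 0 counts, and no annotated exon of another gene overlaps the other 7 members.

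**Figure D3:**
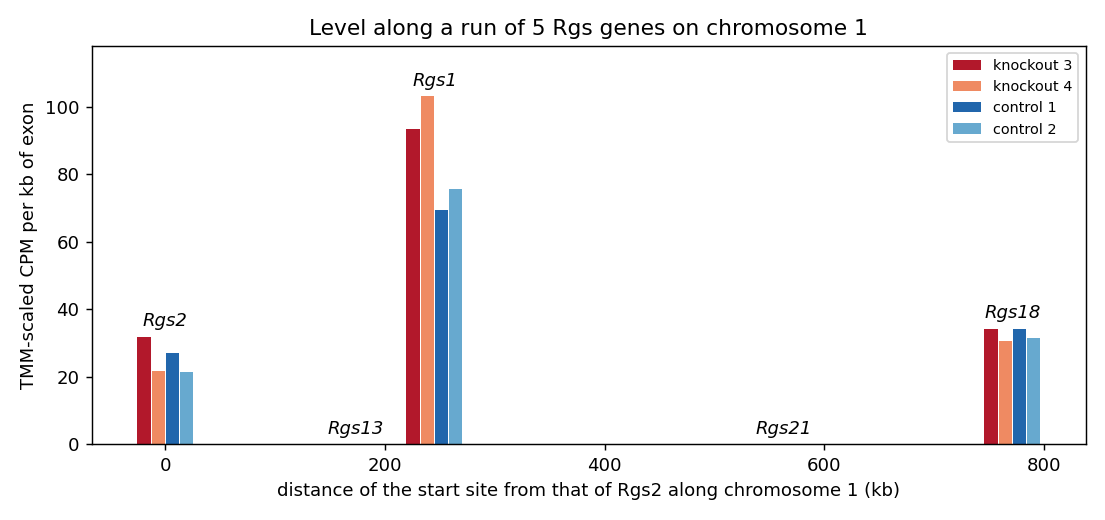
Level of the 5 Rgs genes in the chromosome 1 run, as TMM-scaled CPM per kb of exon, by the distance of their start sites from that of Rgs2. Rgs1 reaches 69.4 to 103 CPM per kb between Rgs13 and Rgs21, which have 0 counts in all 4 libraries.

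The 13 numbered Rgs genes that are not members were rare. The members held 99.6% and 99.7% of all Rgs counts in the libraries labelled knockout, against 99.6% and 99.3% in the controls. Of the 13, 5 had 0 counts in every library, 4 were counted but too rare to be tested, and 4 were tested. Rgs12 was at 1.12 and 1.89 CPM in the libraries labelled knockout, against 2.74 and 3.70 CPM in the controls (edgeR adjusted p = 0.66). Rgs9, whose protein is known from photoreceptors and the striatum, was at 2.58 and 1.49 CPM in the libraries labelled knockout, against 0.69 and 0.15 CPM in the controls (edgeR adjusted p = 0.548). Rgs11 had 1 and 0 counts in the libraries labelled knockout, against 23 and 122 counts in the controls (edgeR adjusted p = 0.329), and DESeq2 called it lower (adjusted p = 0.0159). Rgs5, a pericyte gene, had 18 and 0 counts in the libraries labelled knockout, against 34 and 37 counts in the controls. A gene this rare passes the filter only through the group where it is counted. Rgs9bp, which encodes a binding partner of RGS9, had 0 and 46 counts in the libraries labelled knockout, against 0 and 21 counts in the controls.

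The members differed in how far the 2 libraries of a genotype lay apart. The log2 ratio of library 3 over library 4 was 0.56 for Rgs2 and 1.99 for Rgs16, and that of control library 1 over control library 2 was 0.34 for Rgs2 and 2.06 for Rgs16. For the other 6 members these ratios stayed between -0.14 and 0.22. The median absolute ratio over 13972 tested genes was 0.37 in the libraries labelled knockout and 0.35 in the controls. Rgs16 thus varied more than most genes and those 6 members less. Rgs2 was above the median in the libraries labelled knockout and just below it in the controls, so it was not unusual among all genes. Among 80 candidate genes of at least 10 CPM in the G protein and immediate early gene lists and among the other members, the one with the profile nearest to that of Rgs16 over the 4 libraries was Ier2, an immediate early gene, with a root mean square difference of 0.35 on the log2 scale. Ier2 was at 62.7 and 29.2 CPM in the libraries labelled knockout, against 102.9 and 21.8 CPM in the controls. Junb, an AP-1 factor gene that came next (0.37), was at 121 and 57.3 CPM in the libraries labelled knockout, against 197 and 33.2 CPM in the controls. Both were high in library 3 and control library 1, as Rgs16 was, although other immediate early genes were not: Fos was at 37.3 and 56.9 CPM in the libraries labelled knockout, against 20.7 and 17.7 CPM in the controls. Library 3 and control library 1 are also the libraries numbered 1 within their genotype in the column names, and over 7700 genes the differences between the libraries of a genotype correlated at 0.24. Whether that number marks a shared batch is not given in the sources used here, and its part in these profiles was not tested. Exons of Junb overlap those of Prdx2 on the opposite strand, and its reads cannot be told apart from those of Prdx2 where the counting ignored strand.

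**Figure D4:**
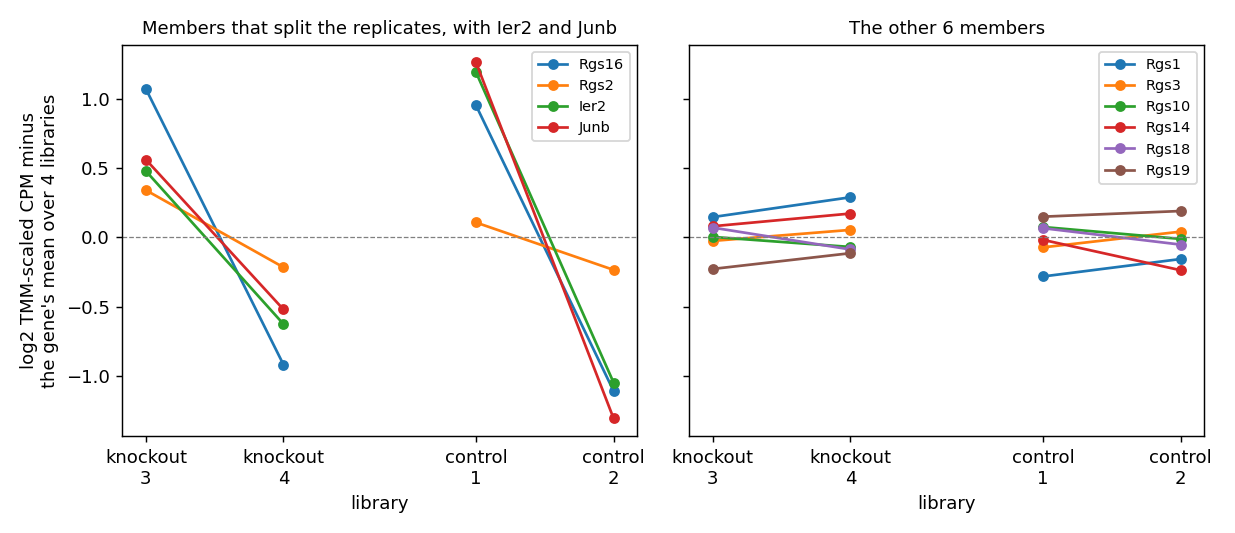
Log2 TMM-scaled CPM of each gene minus its own mean over the 4 libraries, with lines joining the 2 libraries of a genotype. On the left Rgs16, Rgs2, Ier2 and Junb are high in knockout library 3 and control library 1, the libraries numbered 1 in the column names, and on the right the other 6 members stay close to their mean.

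For the other members, the nearest profiles were those of Gng5 for Rgs1 (0.05), Gnb4 for Rgs2 (0.08), Pde4b for Rgs3 (0.04), Gpr171 for Rgs14 (0.03) and Gnai2 for Rgs19 (0.08), while Rgs10 and Rgs18 were nearest to each other (0.04). With 4 libraries and little variation, such differences describe these libraries and nothing more. Second nearest to Rgs1 was Cd69 (0.06), an early activation antigen gene, at 139.8 and 143 CPM in the libraries labelled knockout, against 101 and 116 CPM in the controls. Gng5, a G protein gamma subunit gene, was at 175 and 201 CPM in the libraries labelled knockout, against 143 and 146 CPM in the controls. Gnai2, which encodes an inhibitory alpha subunit on which RGS proteins act, was at 109.7 and 133 CPM in the libraries labelled knockout, against 136 and 150.0 CPM in the controls.

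The genes around the RGS proteins were read from lists of the pathway, and edgeR called 0 genes in any of them over all genes tested. At an unadjusted p under 0.05, 4.48% of all genes were higher and 5.17% lower, which is the background for the counts of each list. For the DESeq2 calls, the background is 1.83% of genes higher and 1.34% lower. Of 10 tested alpha subunits, 2 were higher and 2 lower at unadjusted p under 0.05. Gna15, a Gq-class subunit gene of blood cells, was at 34.8 and 27.9 CPM in the libraries labelled knockout, against 14.5 and 17.3 CPM in the controls, and DESeq2 called it higher (adjusted p = 0.0174). Gna11, another Gq-class gene, was at 67.6 and 77.0 CPM in the libraries labelled knockout, against 105.4 and 161 CPM in the controls, and DESeq2 called it lower (adjusted p = 0.0421). DESeq2 also called Gnal, a Gs-class gene, lower (edgeR log2 fold change -0.92, DESeq2 adjusted p = 0.0453). Gnal had 669 and 625 counts in the libraries labelled knockout, against 1494 and 1257 counts in the controls. Its exons overlap those of Mppe1 on the opposite strand over 852 bases. Mppe1 had 1372 and 1699 counts in the libraries labelled knockout, against 2347 and 2484 counts in the controls. Where the counting ignored strand, reads of Gnal cannot be told apart from those of Mppe1 there. Of 10 beta and gamma subunits, 1 was higher and 0 lower with an unadjusted p below 0.05, and DESeq2 called 0.

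Among 23 tested receptors for chemokines, lipids and related attractants, 6 were higher and 1 lower by unadjusted p (under 0.05). Over all genes, 4.48% were higher and 5.17% lower at that limit, and DESeq2 called 1.83% higher and 1.34% lower. A rare receptor can pass the filter only through the libraries where it is high, so no median is given. DESeq2 called Ccr8 lower (adjusted p = 0.027). Ccr8 was at 6.82 and 6.16 CPM in the libraries labelled knockout, against 17.7 and 12.8 CPM in the controls. Ccr7, a receptor gene of dendritic cells and naive T cells, had 47 and 41 counts in the libraries labelled knockout, against 0 and 1 counts in the controls. DESeq2 called it higher (adjusted p = 0.0359), but it passed the filter only through the libraries where it is high. Cmklr1, the chemerin receptor gene, which NK cells and macrophages express, was at 1.09 and 1.95 CPM in the libraries labelled knockout, against 0.26 and 0.25 CPM in the controls (edgeR adjusted p = 0.461). Cxcr6, an ILC1 marker and the most abundant of these receptors, was at 2384 and 2764 CPM in the libraries labelled knockout, against 2213 and 2142 CPM in the controls (log2 fold change 0.24, edgeR adjusted p = 0.671). Several of these receptors are genes of myeloid cells, whose markers were higher in the same libraries, and the part of those cells was not tested.

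Downstream of the receptors, 1 of 23 tested effectors was higher and 1 lower at unadjusted p under 0.05, and DESeq2 called both. That is near the share of all genes, of which 4.48% were higher and 5.17% lower at that limit in edgeR. DESeq2 called 1.83% of all genes higher and 1.34% lower. The same shares are the background for the other lists below. Arhgef1, which encodes a RhoGEF that itself carries an RGS-like domain for the alpha subunits of the G12 class, was at 62.1 and 68.9 CPM in the libraries labelled knockout, against 110.0 and 169 CPM in the controls (log2 fold change -1.09, SE 0.23, edgeR adjusted p = 0.267, DESeq2 adjusted p = 0.00386). Rap1gap2, a Rap GTPase activator gene, was at 6.77 and 5.31 CPM in the libraries labelled knockout, against 0.31 and 1.25 CPM in the controls (DESeq2 adjusted p = 0.00474). Of 17 desensitisation genes and other modulators, the receptor kinase gene Grk3 was higher and the arrestin gene Arrb1 lower with an unadjusted p below 0.05, and DESeq2 called 0. Of 20 receptors linked to cyclic AMP and other signals, 0 were higher and 1 lower by unadjusted p (under 0.05), and DESeq2 called 0. Of 18 immediate early genes, 3 were higher and 1 lower at unadjusted p under 0.05. DESeq2 called Fos higher (adjusted p = 0.00141) and Sik1, a kinase gene induced by cyclic AMP, lower (adjusted p = 0.00513).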

How the data were processed

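The authors deposited raw counts: whole reads per gene for 4 libraries in 1 table. The tools named in the submitters' processing notes are STAR, featureCounts of Subread, bcl2fastq and DESeq2, and the build is mm10; the role of each tool, the annotation and the strand setting are not given in the sources used here. Per the labels' protocols, SMARTer low-input libraries were made from total RNA. The 276 repeated lines, identical to the first, were dropped. The replicates of a genotype differed far beyond sampling noise (chi-square per degree of freedom 88.1 in the libraries labelled knockout and 99.6 in the controls), so each library counted as 1 sample.

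After filterByExpr and TMM scaling, edgeR 4.0.16 was run (robust quasi-likelihood, two-sided, genotype as the only term, 2 residual degrees of freedom) in R 4.3.3. Benjamini-Hochberg adjustment covered 14863 genes, and 0.05 was the limit for a call. The standard error and 95% interval come from the quasi-likelihood F statistic. DESeq2 1.42.0 and limma 3.58.1 (voom) were alternatives, beside other scaling, other filters and leaving out each library. The edgeR and DESeq2 code was tested on simulated counts. Genes outside the 8 members were named by smallest p within a list or by likeness of profile. Pf4, Itgb3, Cd3e and Cd3g came from marker lists. Junb, Cd69, Cxcr6, Gm7266, Cd3e and Cd3g were chosen after their values were seen. Members and lists were chosen with earlier results of these data known. Levels per kb used GENCODE M21 exons, and RefSeq promoters were not found for Rgs1, Rgs14 and Rgs18.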

Additional observations from a re-analysis of the deposited data

How the results depend on the processing

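The 0 calls among the members held under the 13 other settings and under the added replicate block, in both directions. Directions turned in 4 members with fold changes near 0. Rgs3 was at -0.0136 with library totals alone and ran from -0.0382 without knockout library 4 to 0.0905 without control library 2. Rgs18 was at 0.0091 with upper-quartile factors and ran from -0.118 to 0.0448 with each library left out. Rgs16 was at -0.0014 with limma-voom, ran from -1.21 to 1.49 with each library left out, and could not be fitted with at least 50 counts in 2 libraries. Rgs2 ran from -0.19 without knockout library 3 to 0.36 without knockout library 4. Rgs1 kept an unadjusted p under 0.05 in all but 2 of the fits, which were those without knockout library 4 and without control library 1. Rgs19 reached an unadjusted p under 0.05 in 3 fits, at 0.0289 with library totals alone, 0.039 with at least 50 counts in 2 libraries and 0.0397 with the replicate block, which makes 1 member lower in place of 0.

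Over all genes, 21 were called higher and 2 lower. The counts were 299 and 264 with no filter, 40 and 9 with the stricter filter, and 278 and 203 with DESeq2, and 6 were lower with library totals alone. Leaving out 1 library gave 18 higher and 0 lower without knockout library 3, 0 and 0 without knockout library 4, 1 and 2 without control library 1, and 1 and 0 without control library 2. The labels number the libraries 1 to 4, so they pair none, but the column names number the libraries 1 and 2 within each genotype. A replicate block by that number, added after the data were seen, called 0 higher and 0 lower; the differences between the libraries of a genotype correlated at 0.24 across 7700 genes. Rgs16, at 8 to 41 counts, was the member with the least depth.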

Other observations

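The subfamilies to which the RGS proteins are assigned differed in their summed level. The 10 genes of the R4 subfamily summed to 178 and 175 CPM per kb in the libraries labelled knockout, against 148 in both controls. Rgs1 was the largest part, at 93.4 and 103 CPM per kb in the libraries labelled knockout, against 69.4 and 75.7 CPM per kb in the controls. Rgs2, Rgs3, Rgs16 and Rgs18 of this subfamily overlapped between the genotypes. The 3 genes of the RZ subfamily, nearly all Rgs19, summed to 41.6 and 45.0 CPM per kb in the libraries labelled knockout, against 54.0 and 55.6 CPM per kb in the controls. The 3 genes of the R12 subfamily summed to 27.8 and 28.7 CPM per kb in the libraries labelled knockout, against 27.1 and 24.2 CPM per kb in the controls. The 4 genes of the R7 subfamily, known from neurons, stayed below 1 CPM per kb in every library. Gm7266, a processed pseudogene between Rgs1 and Rgs21 on chromosome 1, was at 15.7 and 11.5 CPM in the libraries labelled knockout, against 20.4 and 12.8 CPM in the controls, and shared the high libraries of Rgs2.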
